A study of Mus musculus with 60 samples.

Results

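The genes described here are 9 genes of transforming growth factor beta (TGF-beta) and bone morphogenetic protein (BMP) signalling, Tgfb1, Tgfb2, Tgfbr1, Tgfbr2, Smad6, Smad7, Id1, Id2 and Id3. They were taken by name, and all 9 were found in each of the 3 gene count tables, which list 23440 genes for the culture experiment, 23068 for the passage experiment and 28773 for single organoids. The organoids are 3D cultures of cholangiocytes, the cells that line the bile ducts, from the livers of male C57BL/6N mice, labelled as 3-4 months old. For the first experiment, 3 pools of mice were each grown in domes of Matrigel and in shaking suspension at a low Matrigel content. For the second, bulk RNA of Sets 1, 3 and 4, each from the liver of 1 mouse, was compared between libraries labelled passage 11 and passage 4, with 2 technical replicates each that were summed. For the third, single organoids of Sets 1 to 4 were sequenced, of which the 35 kept by the study are used here: 8 of Set 1 (passage 11), 10 of Set 2 (passage 3), 5 of Set 3 (passage 3) and 12 of Set 4 (passage 4). All single organoids came from suspension, and Set, mouse and passage cannot be told apart among them.

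TGF-beta and BMP are secreted ligands of a shared superfamily that bind paired type I and type II receptor kinases at the cell surface. TGF-beta receptors phosphorylate Smad2 and Smad3 and BMP receptors phosphorylate Smad1, Smad5 and Smad9, which enter the nucleus with Smad4. In the liver, TGF-beta restrains epithelial growth and drives scarring, and BMP6 made by endothelial cells controls hepcidin in hepatocytes. Id1, Id2 and Id3 are helix-loop-helix proteins without a DNA binding region, which bind E proteins such as Tcf3, Tcf4 and Tcf12 and keep them from DNA. Smad6 and Smad7 are inhibitory Smads that block the receptors, and both, like the Id genes, are textbook targets of the pathway they respond to.

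Total counts were 1776490 to 14761853 in the culture experiment, 1486347 to 5532630 in the summed passage libraries and 1059002 to 11175868 in the organoids. Counts are given as CPM (the count of a gene scaled to a fixed library total) after TMM scaling within each experiment, so levels may be compared between libraries of 1 experiment. Because a single 3′ end is read per transcript, gene length has little part in a count. The cholangiocyte markers Krt19, Krt7, Epcam, Sox9, Spp1, Cdh1, Krt8 and Krt18 were each above 5 CPM on average in every group. The whole cholangiocyte list summed to 14171 to 29764 CPM in domes and to 9989.7 to 11088 CPM in suspension, without overlap. The list did not move as a whole: of its 9 genes, 4 were called higher and 1 lower in domes, with a median log2 fold-change of -0.09. Mesenchymal markers summed to at most 6.05 CPM and endothelial markers to at most 3.83 CPM in any library, with Dcn, Lum, Lrat, Cdh5, Kdr and Clec4g at 0 in all of them. Macrophage markers summed to 6.93 to 93.1 CPM in domes and to 3.37 to 9.46 CPM in suspension. Only 1 of these 9 markers was above 5 CPM on average in domes, where C1qa, C1qb, Clec4f, Marco and Timd4 were at 0. The 6 proliferation markers (Mki67, Top2a, Cdk1, Ccnb1, Mcm2 and Pcna) summed to 125 to 241 CPM in domes, 491 to 568 CPM in suspension, 240 to 268 CPM at passage 4 and 508 to 681 CPM in the libraries labelled passage 11. The 9 hepatocyte markers summed to 611 to 942 CPM in domes, 284 to 650 CPM in suspension, 331 to 749 CPM at passage 4 and 806 to 1160 CPM at passage 11. These sums move with the comparisons below, and their part in the results was not tested.

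The members lie on several chromosomes of GRCm38. Tgfb1 lies at chr7:25687002-25705077, Tgfb2 at chr1:186622792-186705989, Tgfbr1 at chr4:47353222-47414931, Tgfbr2 at chr9:116084293-116175360 and Smad6 at chr9:63953076-64022059. Id1 lies at chr2:152736251-152737410, Id2 at chr12:25093799-25097140 and Id3 at chr4:136143497-136145755. The 250 bases before the RefSeq start (GRCm38.p6) were available for 7 of the 9 members, and were searched on both strands for the letters GGCGCC and GGAGCC, which resemble sites of BMP Smads, and for CAGAC, the Smad3 and Smad4 box. The upstream bases of both TGF-beta receptors and of Smad6 are shown because they hold the most matches among the windows that overlap no annotated exon, with matches in capitals, 5′ to 3′ in the direction of the gene.
Tgfbr1, chr4:47352972-47353221, plus strand: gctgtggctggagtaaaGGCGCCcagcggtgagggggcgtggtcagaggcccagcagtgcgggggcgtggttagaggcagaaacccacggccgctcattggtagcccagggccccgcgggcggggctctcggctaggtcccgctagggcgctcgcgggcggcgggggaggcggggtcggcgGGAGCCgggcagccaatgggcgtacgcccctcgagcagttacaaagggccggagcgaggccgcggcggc
Tgfbr2, chr9:116175364-116175613, minus strand: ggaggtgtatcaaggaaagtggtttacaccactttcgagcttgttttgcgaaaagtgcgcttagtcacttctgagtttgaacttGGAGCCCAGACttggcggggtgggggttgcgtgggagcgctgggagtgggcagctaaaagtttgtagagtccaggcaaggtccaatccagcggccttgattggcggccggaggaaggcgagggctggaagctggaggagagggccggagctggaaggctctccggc
Smad6, chr9:64022060-64022309, minus strand: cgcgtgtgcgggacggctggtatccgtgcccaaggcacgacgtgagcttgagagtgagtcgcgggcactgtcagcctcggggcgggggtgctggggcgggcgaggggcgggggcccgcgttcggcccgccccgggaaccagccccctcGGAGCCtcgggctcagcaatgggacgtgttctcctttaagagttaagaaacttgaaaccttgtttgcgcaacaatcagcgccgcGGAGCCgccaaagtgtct
Tgfbr1 held 1 GGCGCC and 1 GGAGCC at this start and 1 CAGAC at a second RefSeq start (chr4:47385966-47386215, not printed), Tgfbr2 held 1 GGAGCC directly followed by 1 CAGAC, and Smad6 held 2 GGAGCC. Of the members not printed, Id3 held 1 GGAGCC and 2 CAGAC, Id2 held 1 GGCGCC and 1 GGAGCC, Tgfb1 held 1 GGAGCC and Tgfb2 held 2 CAGAC. All 250 bases of the Id3 window were annotated as exon, as were 161 bases for Id2 and 167 bases for Tgfb2. Among all 32851 promoters of the same length, 9.59% held GGCGCC, 26% held GGAGCC and 42.2% held CAGAC on either strand. Matches of letters this short are a description of the windows and mark no binding site.

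The first question was whether the growth format changed these genes. Id3 and Id1 were higher in domes than in suspension, and no member was lower at the threshold. Of all genes tested in this comparison, 29.8% passed an adjusted P-value of 0.05, 15% higher and 14.7% lower in domes, beside 2 of the 9 members, a share below that of all genes. The median log2 fold-change was 0.10 over the members and -0.04 over all genes. Across all genes, 47.4% had values that did not overlap between the 3 domes and 3 suspension cultures, and 4 members did not (Id1, Id2, Id3 and Tgfbr1).

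Id3, a direct target of BMP Smads, stood at 456, 646 and 601 CPM in domes 1 to 3 and at 252, 243 and 256 CPM in suspension cultures 1 to 3. Every dome was above every suspension culture, which lay within a narrow band. Its log2 fold-change was 1.18 ± 0.20 SE, or 2.27-fold (adj. P = 0.00381). The ratios of dome to suspension were 1.81, 2.66 and 2.35 for the cultures numbered 1, 2 and 3. The call for Id3 was kept under each of the alternatives run in this comparison. In bulk RNA, fewer cells of a type and less RNA per cell cannot be told apart.

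Id1, another direct BMP target, was at 894, 895 and 893 CPM in the domes and at 577, 636 and 556 CPM in suspension. The dome values were almost equal and all lay above the suspension values. This 1.52-fold difference passed the test (adj. P = 0.0404) at a log2 fold-change of 0.60 ± 0.19 SE. This call was lost without dome 1 (adj. P = 0.0567), without suspension culture 1 (0.163), 2 (0.120) or 3 (0.173), after thinning to equal totals (0.0682) and without the filter on low counts (0.112), while the log2 fold-change stayed between 0.55 and 0.65.

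Id2, which also holds back differentiation in many tissues, was at 618, 697 and 565 CPM in domes and at 485, 472 and 385 CPM in suspension. The groups did not overlap, but Id2 did not pass the test (log2 fold-change 0.49 ± 0.20 SE, adj. P = 0.0937). The inhibitory Smads did not pass either. Smad6, which acts mainly on BMP receptors, was at 11.6, 10.3 and 12.1 CPM in domes and at 10.9, 13.01 and 11.3 CPM in suspension, with a 95% interval of the log2 fold-change from -0.48 to 0.40. Smad7, which blocks both branches, was at 10.7, 19.8 and 9.35 CPM in domes and at 18.7, 19.2 and 14.2 CPM in suspension (log2 fold-change -0.45 ± 0.30 SE, adj. P = 0.278). Dome 2 lay above the other domes, and without it Smad7 passed the test at a log2 fold-change of -0.75 (adj. P = 0.0450).

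The receptor Tgfbr1 was at 4.72, 4.40 and 4.40 CPM in domes and at 6.94, 4.97 and 8.13 CPM in suspension (log2 fold-change -0.57 ± 0.30 SE, adj. P = 0.172). Tgfbr2, the type II receptor that binds TGF-beta itself, overlapped between groups, at 13.7 to 23.6 CPM in domes and 13.5 to 20.1 CPM in suspension. The ligands were near the limit of detection, with 1 to 14 counts of Tgfb1 and 0 to 51 counts of Tgfb2 per dome, and 5 to 21 and 10 to 26 counts per suspension culture. Neither passed the test (adj. P = 0.488 and 0.804), and the fit and the means of Tgfb2 had opposite signs, with 51 counts of Tgfb2 in dome 1 and none in dome 3, where a count of 0 allows a level of up to 1.69 CPM from counting error alone.

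**Figure D1:**
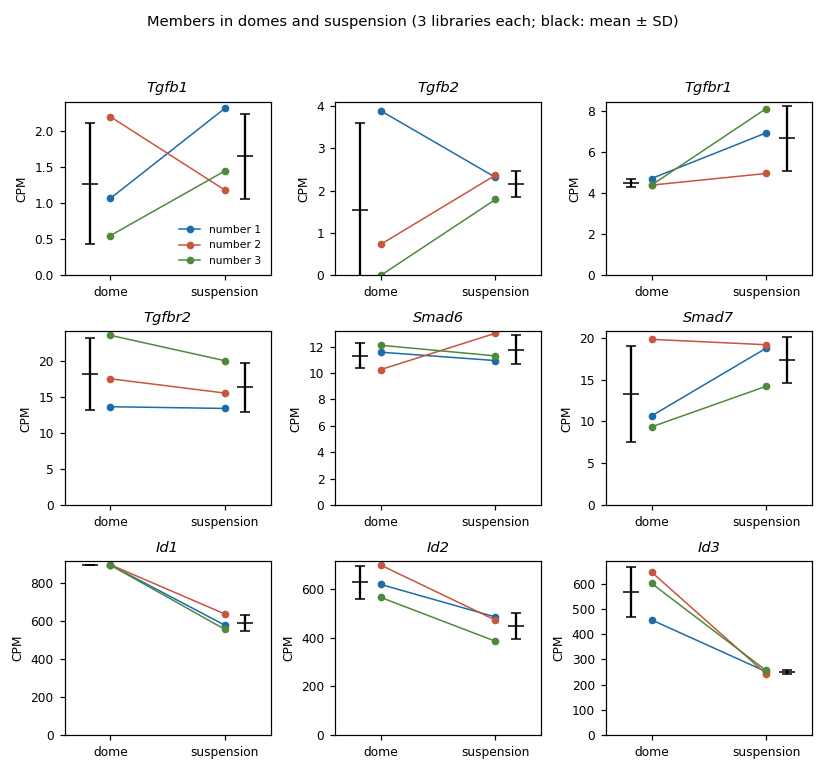
CPM of the 9 members in domes and suspension, 1 panel per gene, with a line joining the cultures of 1 number and black bars for mean ± SD of 3 libraries. Lines of Id1, Id2 and Id3 fall from dome to suspension in all 3 numbers, while Tgfb1, Tgfb2, Tgfbr2, Smad6 and Smad7 overlap between the groups.

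The other genes of both pathways were read from 10 lists. Of 103 listed genes, 53 were tested, and 7 were higher and 13 lower in domes, or 37.7% of those tested beside 29.8% of all genes. This count of 20 fell to 13, 13 and 10 without suspension cultures 1, 2 and 3. Bmp2, a BMP ligand, was at 9.29, 36.7 and 17.6 CPM in domes and 2.10, 3.31 and 1.72 CPM in suspension, 8.59-fold higher (adj. P = 0.00348). Bmp4, another ligand, went the other way, at 24.4, 11.7 and 13.2 CPM in domes and 41.7, 46.3 and 48.0 CPM in suspension (log2 fold-change -1.36, adj. P = 0.00643). Atoh8, a helix-loop-helix factor induced by BMP, was 3.51-fold higher in domes at 69.5, 72.6 and 108 CPM against 23.4, 26.5 and 21.3 CPM (adj. P = 0.00117). Id4, the other BMP target tested, was not called (adj. P = 0.823).

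Of 13 TGF-beta targets tested, 4 were higher and 5 lower in domes. The higher ones included Cdkn1a, the cell cycle inhibitor p21 (4.77-fold). The lower ones included Fn1, encoding fibronectin (log2 fold-change -2.12), Timp1, a metalloproteinase inhibitor (-1.33), and Col4a1, a basement membrane collagen (-1.22). The feedback inhibitors Pmepa1 and Skil were lower by -1.30 and -1.24 on the log2 scale. Of the E proteins that Id proteins bind, Tcf4 (-1.49) and Tcf12 (-0.995) were lower in domes and Tcf3 was not called (0.13, adj. P = 0.739). None of the 6 signalling Smads was called.

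The second question was how the members differed with passage. Tgfb2 and Tgfbr1 were lower in the libraries labelled passage 11 than at passage 4, and no member was higher at the threshold. These directions rest on the labels: the proliferation markers were higher in the libraries labelled passage 11, whereas the study's text and its figure legend place cell cycle genes on opposite sides, so the labels could not be checked against it. If the labels were exchanged, each passage direction given here would turn. Across all genes 20.3% were called, 10.1% in each direction, and 2 of 9 members were. The median log2 fold-change was -0.34 over the members and -0.05 over all genes. Values of 39.5% of all genes did not overlap between the passages, and those of Tgfb2 and Tgfbr1 did not.

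Tgfbr1, the type I receptor that carries the TGF-beta signal, fell from 10.1, 12.1 and 10.9 CPM at passage 4 to 3.81, 5.96 and 2.54 CPM in Sets 1, 3 and 4. In each Set, both technical replicates at passage 11 lay below both at passage 4. The log2 fold-change was -1.31 ± 0.29 SE (adj. P = 0.0123), and the call was lost without the passage 4 library of Set 3 (adj. P = 0.0509). Tgfb2, a ligand, fell from 7.26, 5.18 and 3.87 CPM to 1.57, 1.79 and 1.27 CPM. These values rest on 22 to 28 counts at passage 4 and 2 to 9 counts at passage 11, and the log2 fold-change was -1.71 ± 0.39 SE (adj. P = 0.0134). The call for Tgfb2 was lost after thinning to equal totals (adj. P = 0.0679) and with the first technical replicates alone (0.0710).

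Tgfbr2 was at 46.9, 22.1 and 29.9 CPM at passage 4 and at 17.5, 17.3 and 24.8 CPM at passage 11, a log2 fold-change of -0.77 ± 0.27 SE that did not pass (adj. P = 0.0727). It passed without the passage 4 library of Set 3 (adj. P = 0.0399) and without the filter on low counts (0.00279). Tgfb1 was at 6.74, 3.45 and 2.29 CPM and then at 3.14, 4.37 and 0.636 CPM (adj. P = 0.684). Smad6 rested on 2 to 12 counts per library at passage 11 and 4 to 11 at passage 4 and was not called (adj. P = 0.645). Smad7 was at 12.4, 7.49 and 5.45 CPM and then at 6.06, 5.96 and 5.09 CPM, with the groups overlapping (adj. P = 0.311).

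The 3 Id genes differed between the Sets in direction. Id1 was at 222, 498 and 493 CPM at passage 4 and at 441, 391 and 607 CPM at passage 11 in Sets 1, 3 and 4. It was higher at passage 11 in Sets 1 and 4 and lower in Set 3 (log2 fold-change 0.24 ± 0.28 SE, adj. P = 0.586). Id3 showed the same order, at 162, 324 and 256 CPM and then at 320, 233 and 510 CPM (log2 fold-change 0.51 ± 0.30 SE, adj. P = 0.255). Without the filter on low counts Id3 passed the test (log2 fold-change 0.49, adj. P = 0.0349). Id2 was at 47.2, 132 and 117 CPM and then at 76.7, 77.1 and 143 CPM, with group means of 98.8 and 99.0 CPM (adj. P = 0.966).

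**Figure D2:**
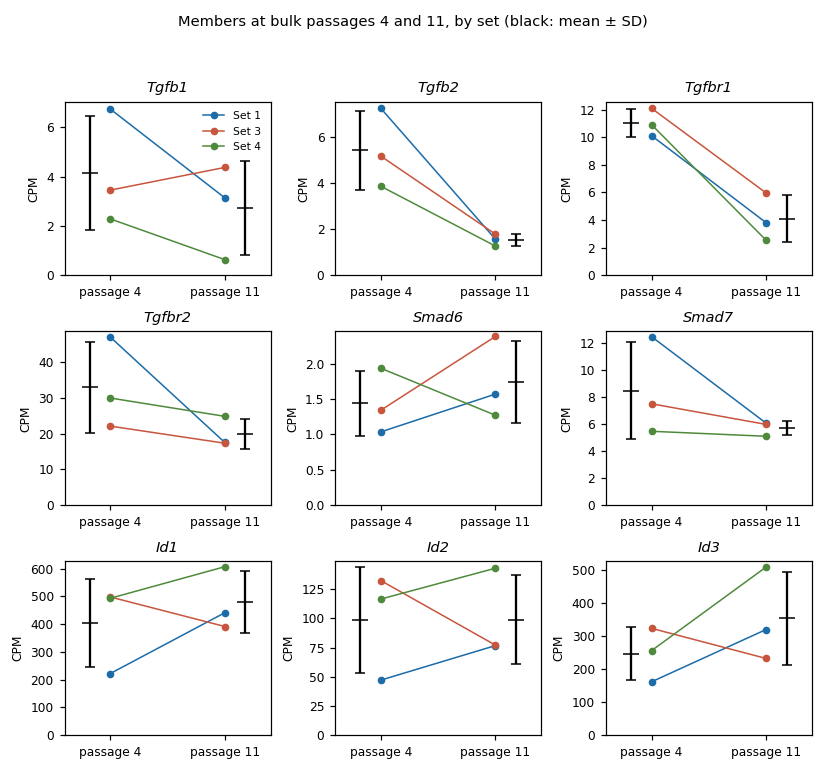
CPM of the 9 members at passages 4 and 11, 1 line per Set with technical replicates summed, and black bars for mean ± SD of 3 Sets. Tgfb2 and Tgfbr1 fall in all 3 Sets, while Id1, Id2 and Id3 rise in Sets 1 and 4 and fall in Set 3.

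In the pathway lists, 55 genes were tested between passages, with 2 higher and 14 lower at passage 11, or 29.1% of those tested beside 20.3% of all genes. This count of 16 was not stable: it was 7 without the passage 4 library of Set 1, 8 without that of Set 3 and 10 without that of Set 4, 10, 8 and 8 without the passage 11 libraries of Sets 1, 3 and 4, and 8 after thinning to equal totals. Atoh8 was 2.84-fold higher, at 33.4, 18.9 and 58.5 CPM against 6.48, 15.7 and 14.1 CPM in Sets 1, 3 and 4 (adj. P = 0.0251). The activin and BMP antagonist Fst was also higher, and its passage 4 libraries of Sets 1 and 3 were listed at 0. The BMP receptor Bmpr2 was lower (log2 fold-change -1.12), as were Itgav and Itgb6, integrin chains that release active TGF-beta (-1.48 and -0.86). Bmp6, an iron-responsive BMP ligand, was lower at 1.80, 0.596 and 0 CPM against 6.22, 8.83 and 2.82 CPM (adj. P = 0.0194). Of 14 TGF-beta targets tested, 6 were lower and none higher, among them Fn1 (-1.59), Plaur, the urokinase receptor (-0.92), and Cdkn2b, the cell cycle inhibitor p15 (-0.84). The E protein Tcf12 was lower (-1.29, adj. P = 0.00404), and no signalling Smad was called among the 5 tested.

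The third question was how much the members varied between organoids of different Sets and within 1 Set. Membership of a Set took up 63.6% of the spread (variance of log2 CPM) of Id1 over the 35 organoids (± 8.88, jackknife SE) and 64.1% of that of Id2 (± 7.81). For Tgfbr2 the share was 44.4%, for Tgfb2 40.6%, for Id3 39.2%, for Tgfb1 32.1%, for Smad7 28.8%, for Tgfbr1 23.4% and for Smad6 19.7%. The median share over all 13927 genes tested was 19.3%, and 98.8% of genes had a smaller share than Id1. With all 42 organoids the shares of Id1 and Id2 were 31.3% and 39.2%, and that of Tgfb1 13.6%.

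Id2 was highest in Set 1. Its lowest, median and highest organoids were at 1338, 1413 and 2090 CPM in Set 1, at 202, 597 and 806 CPM in Set 2 and at 454, 727 and 1066 CPM in Set 4, and the 5 organoids of Set 3 were at 705, 779, 1234, 622 and 1057 CPM. Each kept organoid of Set 1 was above each kept one of the other Sets. The left-out organoids 9 and 10 of Set 1 were lower, at 880 and 314 CPM when all 42 organoids were scaled together. Id2 was 2.87-fold higher in Set 1 than in Set 2 (log2 fold-change 1.52 ± 0.20 SE, adj. P = 8.8e-07), 1.76-fold higher than in Set 3 (0.82 ± 0.25, adj. P = 0.0247) and 2.12-fold higher than in Set 4 (1.09 ± 0.19, adj. P = 0.000105). The difference from Set 3 did not pass without organoid 1 (adj. P = 0.0614), 3 (0.0600) or 5 (0.0759) of Set 3, or with all 42 organoids (0.0805). Id2 was also lower in Set 2 than in Set 3 (log2 fold-change -0.70 ± 0.23 SE, adj. P = 0.0350), a call lost without organoid 4 (0.142) or 6 (0.0958) of Set 3.

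Id1 was higher in Sets 1 and 4 than in Sets 2 and 3, while the range of Set 2 overlapped theirs. It ranged from 264 to 636 CPM with a median of 378 in Set 1, from 151 to 316 CPM with a median of 191 in Set 2, and from 290 to 536 CPM with a median of 350 in Set 4. In Set 3 it was at 240, 216, 241, 263 and 231 CPM, so no kept organoid of Set 3 reached the kept ones of Sets 1 and 4. The left-out organoids did not keep this separation. When all 42 organoids were scaled together, those of Set 1 were at 173 and 157 CPM. Those of Set 4 were at 176, 173 and 206 CPM, and that of Set 3 at 154 CPM. Id1 was 1.92-fold higher in Set 1 than in Set 2 (log2 fold-change 0.94 ± 0.16 SE, adj. P = 7.75e-05) and 1.72-fold higher than in Set 3 (0.78 ± 0.20, adj. P = 0.00763). It was lower in Set 2 than in Set 4 (-0.85 ± 0.15, adj. P = 0.000106) and in Set 3 than in Set 4 (-0.69 ± 0.19, adj. P = 0.0129). Sets 1 and 4 were not told apart, with an interval from -0.21 to 0.40, nor were Sets 2 and 3, with an interval from -0.53 to 0.20. With all 42 organoids, Id1 no longer passed between Sets 1 and 3 (adj. P = 0.0701) or 3 and 4 (0.0871). The hepatocyte markers also had higher median sums in Sets 1 and 4 than in Sets 2 and 3, at 1207, 837, 520 and 1460 CPM in Sets 1 to 4. Most of this sum in Sets 3 and 4 was Ttr, with means of 515 and 1352 CPM. Of the 5 hepatocyte markers tested between Sets 3 and 4, Ttr alone was called, and 3 had higher fitted levels in Set 3. The part of these markers in the Id1 result was not tested.

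Within Sets, Id1 moved with the total count of the library, as described below. With the log2 total count as a covariate, added after the data were seen, the Id1 differences were kept (adj. P = 5.96e-05 for Set 1 against 2, 0.00755 for 1 against 3, 9.5e-06 for 2 against 4 and 0.00375 for 3 against 4).

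Id3 ranged from 200 to 483 CPM in Set 1, from 104 to 311 CPM in Set 2 and from 152 to 367 CPM in Set 4, with medians of 281, 185 and 208 CPM. In Set 3 it was at 121, 115, 167, 147 and 172 CPM, below every organoid of Set 1. Id3 stood 2.03-fold higher in Set 1 than in Set 3 (log2 fold-change 1.02 ± 0.24 SE, adj. P = 0.00278) and 1.49-fold higher than in Set 2 (0.57 ± 0.19, adj. P = 0.0379). The second call was lost under 5 alternatives, with adj. P from 0.0538 with a minimum count of 10 to 0.134 with the replicate block. The difference from Set 4 did not pass (0.42 ± 0.18, adj. P = 0.120).

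Smad7 had medians of 57.5, 35.8, 32.9 and 45.4 CPM in Sets 1 to 4, with ranges of 35.0 to 78.4, 20.8 to 53.2, 30.7 to 39.6 and 16.4 to 85.3 CPM. It was higher in Set 1 than in Set 2 (log2 fold-change 0.65 ± 0.20 SE, adj. P = 0.0267) and than in Set 3 (0.71 ± 0.25, adj. P = 0.0495). The call against Set 3 sat at the threshold and was lost without any 1 of the 5 organoids of Set 3 (adj. P from 0.0596 to 0.105). Smad6 had medians of 5.78, 4.33, 4.46 and 6.74 CPM and was called lower only between Sets 2 and 4 (-0.73 ± 0.25, adj. P = 0.0490), a call lost under 4 alternatives (adj. P from 0.0546 to 0.179).

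Among the kept organoids, Tgfb1 and Tgfb2 were highest in Set 3. Tgfb2 was at 24.4, 11.6, 30.9, 8.48 and 34.8 CPM in the 5 organoids of Set 3, against medians of 5.58, 5.98 and 3.84 CPM in Sets 1, 2 and 4. Organoids 3 and 5 lay within the range of the other Sets, and organoids 1, 4 and 6 above every organoid of them. Tgfb2 was lower in Set 1 (log2 fold-change -1.79 ± 0.40 SE, adj. P = 0.00221) and Set 2 (-1.85 ± 0.39, adj. P = 0.00108) than in Set 3, and 4.04-fold higher in Set 3 than in Set 4 (adj. P = 0.000217). Tgfb1 was at 12.8, 7.22, 5.42, 10.6 and 8.43 CPM in Set 3, against medians of 4.21, 5.51 and 4.00 CPM. It was lower in Set 1 than in Set 3 (-1.12 ± 0.28, adj. P = 0.00688) and 1.98-fold higher in Set 3 than in Set 4 (adj. P = 0.00974). Against Set 4 the call was lost without organoid 1 of Set 3 (adj. P = 0.0583), and both calls were lost after thinning (0.128 and 0.242). Between Sets 2 and 3 Tgfb1 missed the threshold (adj. P = 0.0655) and passed it without organoid 4 of Set 3 (0.0422).

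The receptors differed from each other. Tgfbr2 was highest in Set 4, from 12.6 to 25.9 CPM with a median of 17.4, against medians of 9.83, 12.1 and 12.2 CPM in Sets 1 to 3. It was lower in Set 1 (-0.88 ± 0.19 SE, adj. P = 0.00146) and Set 2 (-0.62 ± 0.18, adj. P = 0.0175) than in Set 4, and the second call was lost after thinning (adj. P = 0.103). Tgfbr1 was at 10.4, 17.0, 11.9, 15.9 and 9.48 CPM in Set 3 and had a median of 7.10 CPM in Set 4, a 1.89-fold difference (adj. P = 0.0133) that was lost without organoid 3 of Set 3 (0.0583), after thinning (0.0943) and with the replicate block (0.0592). No other pair of Sets was called for Tgfbr1.

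Counted over members, 4 were higher in Set 1 than in Set 2 and none lower, where 14.3% of all genes were called, 7.08% higher and 7.19% lower. Against Set 3, 4 were higher and 2 lower (9.43% of all genes, 4.3% higher and 5.13% lower), and against Set 4, 1 was higher and 1 lower (20%, with 12.4% higher and 7.6% lower). Set 2 had 2 members lower than Set 3 (3.93% of all genes, 2.05% higher and 1.88% lower) and 3 lower than Set 4 (12.4%, with 7.02% higher and 5.35% lower). Set 3 had 3 members higher and 1 lower than Set 4 (11.6% of all genes, 7.89% higher and 3.67% lower). Between Sets 2 and 3 and between Sets 2 and 4 every member overlapped, as did all but 0.553% and 0.201% of genes. Between Sets 1 and 2 the values of 1.11% of all genes did not overlap, and Id2 alone of the members did not. The share was 3.69% between Sets 1 and 3, where Id1, Id2 and Id3 did not overlap, and 1.07% between Sets 1 and 4, where Id2 did not. Between Sets 3 and 4 it was 2.07%, and Id1 did not.

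**Figure D3:**
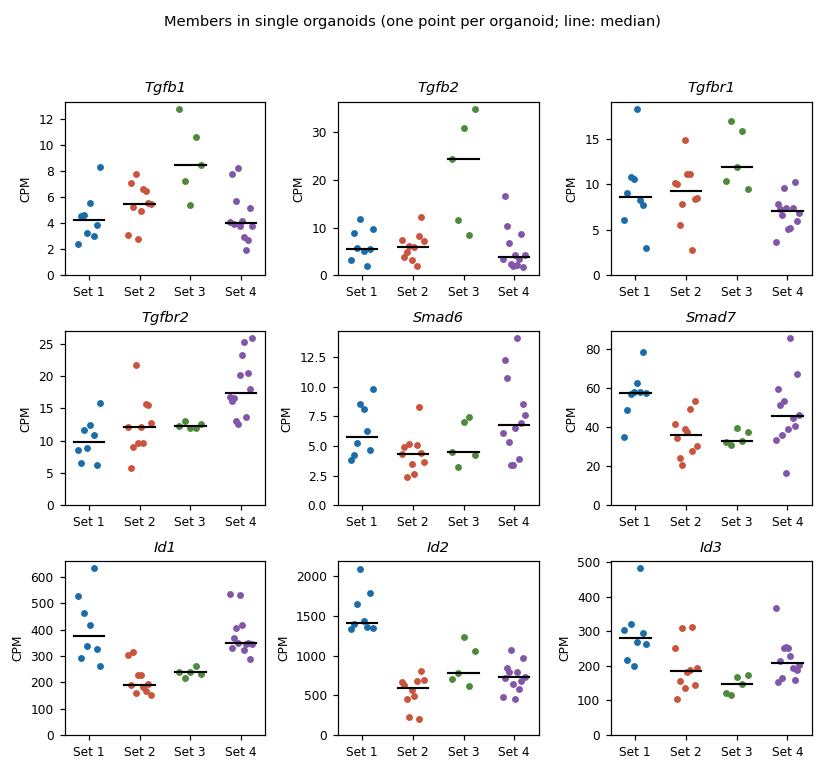
CPM of the 9 members in 35 single organoids by Set, 1 point per organoid and a line at the median. Set 1 stands above the other Sets for Id2, and Set 3 reaches the highest values of Tgfb1 and Tgfb2. For Id1 the medians of Sets 1 and 4 lie above those of Sets 2 and 3, and the range of Set 2 overlaps theirs.

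Of 56 genes of the pathway lists tested, 8 were higher and 8 lower in Set 1 than in Set 2 (28.6%, beside 14.3% of all genes), 4 higher and 9 lower than in Set 3 (23.2%, beside 9.43%), and 13 higher and 7 lower than in Set 4 (35.7%, beside 20%). Between Sets 2 and 3, 2 and 4, and 3 and 4, the lists had 2, 8 and 10 genes called (3.57%, 14.3% and 17.9%, beside 3.93%, 12.4% and 11.6% of all genes). Id4, the fourth Id gene, was 10.6-, 19.0- and 11.3-fold higher in Set 1 than in Sets 2, 3 and 4, with medians of 22.03, 2.99, 2.11 and 2.899 CPM in Sets 1 to 4 (adj. P at most 1.39e-08). Bmp2 was 5.31-, 5.17- and 4.91-fold higher in Set 1, with medians of 16.9, 3.09, 3.53 and 3.34 CPM. For both genes no kept organoid of Set 1 overlapped those of another Set. Bmp4 was 2.92-fold higher in Set 1 than in Set 4 and 1.55-fold higher than in Set 2. Atoh8 was 2.14-fold higher than in Set 2 and 3.07-fold higher than in Set 3.

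On the TGF-beta side, the third ligand Tgfb3 was lower in Set 1, with medians of 2.72, 13.2, 12.1 and 11.6 CPM in Sets 1 to 4 and log2 fold-changes of -2.16, -2.23 and -2.18. Pmepa1, a TGF-beta induced feedback inhibitor, was lower in Set 1 by -1.29, -1.73 and -1.04. Timp1 was lower in Set 1 against each other Set (-0.94, -1.21 and -1.13), and Fn1 against Sets 2 and 3 (-1.23 and -1.66). Other listed TGF-beta targets were higher, with Tpm1, a tropomyosin, and Plaur 1.39- and 1.65-fold above Set 2. The antagonist Fst was lower in Set 1 than in Set 2 (log2 fold-change -4.13). Among the signalling Smads, Smad4 was 2.00-fold higher in Set 3 than in Set 4 and Smad1 1.56-fold higher in Set 1 than in Set 4.

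**Figure D4:**
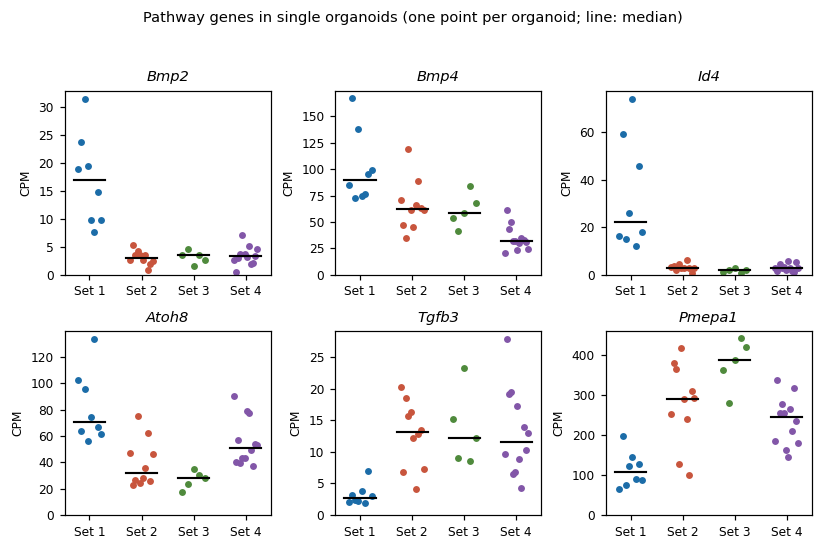
CPM of 6 further pathway genes in 35 single organoids by Set, 1 point per organoid and a line at the median. Set 1 is above every other Set for Bmp2 and Id4, while its Tgfb3 and Pmepa1 medians are the lowest of the 4 Sets.

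Within Sets, the spread between organoids includes that of separate library preparations, which these data do not measure. The coefficient of variation of Id1 CPM was 31.5%, 27.0%, 7.21% and 20.5% in Sets 1 to 4, where counting alone would give 3.22%, 4.91%, 4.18% and 3.54%. For Id2 it was 17.5%, 37.0%, 29.2% and 24.8%, and for Id3 29.7%, 36.1%, 18.03% and 26.9%. For Tgfb1 in Set 2 the spread (29.3%) was no larger than that of counting (29.4%). After the mean of each Set was removed, Id1 rose with the log2 total count of the library (r = 0.71 over 35 organoids, as a description), and Smad6 (r = -0.56) and Smad7 (r = -0.53) fell with it, while Id2 (r = -0.02) and Id3 (r = -0.05) did not move with it.

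Of 36 pairs of members, 1 pair moved together across organoids after Set means were removed. Smad7 and Id2 had r = 0.55 (permutation P = 0.00069, adj. P = 0.0248 over the 36 pairs) and Spearman rho = 0.68 (P = 5e-05, adj. P = 0.0018), two-sided over 100000 permutations within Sets. Without the 2 organoids farthest from the median of Smad7, r was 0.68, and within Sets 1, 2 and 4 it was 0.47, 0.75 and 0.49. Id2 and Id3 ran in opposite directions (r = -0.46, permutation adj. P = 0.0911), which rested on few organoids since r was -0.14 without the 2 farthest. In Set 2, organoids 2 and 6 had the lowest Id2 (225 and 202 CPM) and the highest Id3 (309 and 311 CPM), and the smallest totals of that Set (1298591 and 1180937 counts). Id1 and Id3 had r = 0.32 (permutation adj. P = 0.242), with 0.78 in Set 1, -0.21 in Set 2 and 0.66 in Set 4. With all 42 organoids, 4 pairs passed: besides Smad7 and Id2 these were Id2 and Id3 (r = -0.53), Smad6 and Id1 (-0.48) and Tgfbr2 and Id2 (-0.47).

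**Figure D5:**
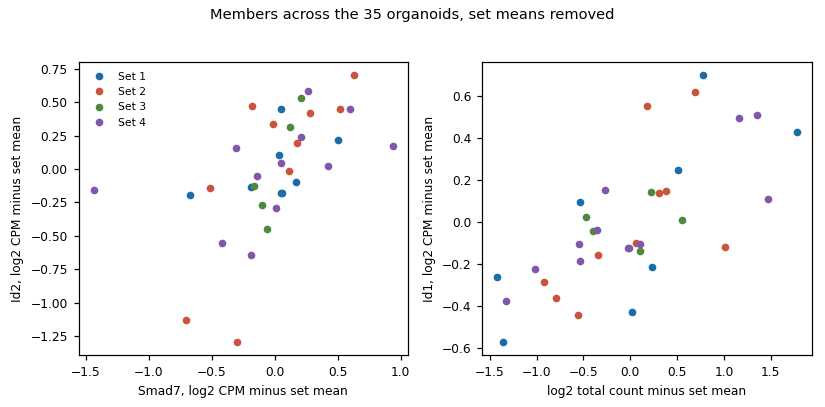
Log2 CPM after subtraction of the Set mean in 35 organoids coloured by Set, for Id2 against Smad7 (left) and for Id1 against the log2 total count of the library (right). Id2 rises with Smad7 (r = 0.55) and Id1 rises with the total count (r = 0.71).

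Among 6127 genes outside the members, those with the rank order most like each member across organoids were named, again with Set means removed and as a description over 35 organoids that share Sets and depth. The 3 nearest to Id3 were Acbd4 (rho = 0.83), Atoh8 (0.83) and Ttr (0.82), the last encoding transthyretin, a secreted hepatocyte protein. Those nearest to Id1 were Thap11 (0.85), Plekhj1 and Drap1 (both 0.84). Wasl (0.87), Gm14698 (0.84) and Gpatch1 (0.84) were nearest to Id2, and Mcu (0.87) and Ppp2r5c (0.84) were among the 3 nearest to Smad7. Enc1 (0.65) was nearest to Smad6, Rpp38 (0.78) to Tgfb2, 9930021J03Rik (0.78) to Tgfbr1, Sft2d2 (0.56) and 3110040N11Rik (0.56) to Tgfbr2, and Fosl2 (0.52) to Tgfb1.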

How the data were processed

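The authors deposited whole-number gene counts of 3′-end RNA-seq, made with zUMIs, STAR, SAMtools 1.9 and featureCounts on mm10/GRCm38 with Ensembl annotation. The study's methods name down-sampling within zUMIs, and whether it was applied to these tables is not stated there. The sources used here do not say whether a count is a UMI or a read. RNA input of single organoids was normalised by Actb. They also do not name the growth format of the passage cultures. All samples were grouped from the labels, and the kept organoids are those the study kept.

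Technical replicates were summed. The filter on low counts was filterByExpr (min.count 3), and the remaining genes were scaled by TMM and tested with edgeR 4.0.16 quasi-likelihood F-tests in R 4.3.3, with Benjamini-Hochberg adjustment and a threshold of 0.05. The 4 Sets were fitted together and adjusted over their 6 comparisons, which share Sets. Standard errors follow from the F statistic, and intervals are 95%. Organoids of 1 Set share a mouse, so P-values between Sets measure the spread between organoids and not between mice. The fits were tested on simulated data. There, with 3 libraries per group, the share of false calls was above the threshold of 0.05. Most of the smaller differences put in were not called in these fits. The organoid fit showed no such excess and called most of them. In the culture and passage comparisons, calls are therefore less certain than the threshold states, and a gene not called may still differ. Members, lists and tests were chosen with earlier results of these data known. Genes named from the lists were the called ones with the largest changes, up to 3 in each direction per list and comparison, at a mean log2 CPM of at least 2, plus signalling Smads and Id partners. Bulk Set comparisons of Tgfb3, Id4, Bmp2, Id1 and Id2 were chosen after they were seen. So were the left-out values of Id1, Id2, Id3, Tgfb1 and Tgfb2.

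Dome and suspension libraries of 1 number were taken as a pair, though the study's text does not tie numbers to pools. Their correlations of deviations were 0.15, 0.16 and 0.19. Passage libraries of 1 Set share a mouse (0.11, 0.03 and 0.11 for Sets 1, 3 and 4). A fit with this block was an alternative, as were limma-voom (limma 3.58.1), DESeq2 1.42.0, RLE factors, other filters, thinning to the smallest total, leaving out libraries, single technical replicates and all 42 organoids. The 7 organoids left out hold 666660 to 1152914 counts. Permutations used NumPy 2.4.6. Gene positions are from GENCODE M21, and promoter bases from RefSeq. An alignment of the Id proteins and a promoter of Id1 were not analysed here. A few genes that these rules would name are not reported here.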

Additional observations from a re-analysis of the deposited data

Results flagged for a closer look

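In the passage experiment, the direction of some members differed between Sets, with both technical replicates of a library on the same side. Id1 changed from passage 4 to passage 11 by 0.99 in Set 1 and 0.30 in Set 4 on the log2 scale of CPM, and by -0.35 in Set 3. Id3 changed by 0.99 in Set 1, 0.99 in Set 4 and -0.48 in Set 3. Id2 changed by 0.70 in Set 1 and -0.78 in Set 3. Tgfb1 changed by -1.10 in Set 1, -1.85 in Set 4 and 0.34 in Set 3, on 1 to 26 counts per library. These differences between Sets were not tested, because each Set holds 1 library per passage and technical replicates do not stand for separate cultures. They were 7 of 27 combinations of a member and a pair of Sets.

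Of 27 combinations of a member and a Set with 5 to 10 organoids, 2 held an organoid far from the rest, and chance flags about 1 in 20. Smad6 in organoid 6 of Set 2 was at 8.28 CPM, where the next organoid of that Set was at 5.20 CPM. Id3 in organoid 6 of Set 1 was at 483 CPM, where the next was at 320 CPM.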

How the results depend on the processing

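No member changed direction with a call under any alternative. Of the member log2 fold-changes under the alternatives, 870 kept their side of the threshold, 45 lost the call and 9 gained it. Where neither fit was called, a change of sign was not counted. With the replicate block, which pairs culture numbers or mice, 2 members were called in culture (4019 genes) and 2 between passages (2950 genes). No member call changed there. Between Sets the replicate numbers of organoids are only names, and that block left 1584 genes called between Sets 1 and 4, 897 between 2 and 4 and 731 between 3 and 4, against 2780, 1722 and 1610. It ended the calls of Id3 between Sets 1 and 2 (adj. P = 0.134) and Tgfbr1 between 3 and 4 (0.0592), and Tgfb1 passed between 2 and 3 (0.0279). Thinning to the smallest total left 1 member called in culture, 1 between passages, 1 between Sets 2 and 4 and 2 between 3 and 4, with 1741 genes called between passages and 1135, 775, 1663, 1029 and 973 between Sets 1 and 2, 1 and 3, 1 and 4, 2 and 4 and 3 and 4, on fewer counts. Without the filter on low counts, which also changes the number of genes tested, 1 member was called in culture, 4 between passages and 1 between Sets 2 and 3. The first technical replicates alone gave 1 member and 1717 genes. All 42 organoids gave 3 members between Sets 1 and 3, 1 member and 252 genes between 2 and 3, 977 genes between 2 and 4, 716 between 3 and 4, and 4 pairs of members. Adjustment within each comparison gave 1 member and 180 genes between Sets 2 and 3. The cause of these changes was not tested. Member counts given without a count of genes have no share of all genes beside them, and are not read as a result about the members.

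Leaving out 1 library at a time gave 1 to 3 members and 1893 to 3837 genes in culture, 2 members and 1552 to 2244 genes between passages, 4 to 5 members and 1018 to 1166 genes between Sets 1 and 3, 1 to 2 members and 369 to 488 genes between 2 and 3, and 3 to 4 members and 803 to 1895 genes between 3 and 4. With the log2 total count as a covariate, an alternative chosen after seeing the data, Smad6 passed between Sets 1 and 2 (adj. P = 0.0342) and Tgfbr2 between 3 and 4 (0.0462). DESeq2 also called Id3 between Sets 3 and 4 (0.0452). Counts limit Tgfb1, Tgfb2 and Smad6 most, with under 30 counts per bulk passage library.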

Other observations

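The Set difference of Tgfb3 also stood in the bulk libraries, which are separate samples of the same Sets. Tgfb3 was at 1.81 and 2.92 CPM in Set 1 at passages 4 and 11, at 7.29 and 8.75 CPM in Set 3 and at 13.4 and 19.1 CPM in Set 4, so Set 1 was lowest at both passages. Id4 and Bmp2 were not high in the bulk libraries of Set 1. Id4 was at 0 and 0.898 CPM and Bmp2 at 2.33 and 0.898 CPM at passages 4 and 11. Id2 was lowest in Set 1 at both bulk passages, unlike in the single organoids. It was at 47.2 and 76.7 CPM in Set 1, 132 and 77.1 CPM in Set 3 and 117 and 143 CPM in Set 4. Id1 in Set 1 was below Sets 3 and 4 at passage 4 (222, 498 and 493 CPM). At passage 11 it lay between them, at 441 CPM against 391 CPM in Set 3 and 607 CPM in Set 4. These levels come from a table normalised apart from that of the single organoids, and the difference between the experiments was not tested.

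Atoh8 was called higher both in domes and at passage 11, where Id1 and Id3 were higher in domes and not called at passage 11. In the 7 organoids left out by the study, Id1 was at 154 to 218 CPM.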
